A study of Mus musculus with 4 samples.

Results

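The matrix-rich spots of the pancreas were the positions on the tissue sections where messenger RNA of fibrillar collagens and of small leucine-rich proteoglycans took the highest share of all RNA molecules counted. In each of the 4 sections, spots with at least 500 unique molecules (UMIs) were ranked by the summed UMIs of Col1a1, Col1a2, Col3a1, Dcn and Lum over all UMIs of the spot. The 200 highest spots with at least 2 UMIs of these 5 genes were taken, with ties going to the spot with more UMIs. This gave 800 matrix-rich spots out of 27040, and the remaining spots with at least 500 UMIs of the same section served as the comparison. A spot is a small disc of tissue that can hold several cells of different types, so the text speaks of spots, not of fibroblasts, and a gene list describes what lies under a spot. Fewer cells of a type and less RNA per cell cannot be told apart in such data.

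The sections came from formalin-fixed pancreas of 4 C57Bl/6 mice, all 4 weeks old and all carrying Pdx1-Cre, of which 2 were labelled wild type for Ehmt2 (Ehmt2+/+) and 2 were labelled with 2 floxed alleles (Ehmt2 fl/fl). All 4 mice received caerulein, an analogue of cholecystokinin that causes acute pancreatitis, at 50 µg/kg in 8 hourly injections after a fast of 12 h, and tissue was taken 18 h after the first dose. Pdx1-Cre acts in the pancreatic epithelium, so deletion of Ehmt2, which encodes a histone H3 lysine 9 methyltransferase, was directed to acinar, ductal and islet cells and not to fibroblasts. No section of an untreated pancreas was analysed here, and each genotype lay on 1 capture position, the same on both slides. Values of the 4 sections are given below in a fixed order, Ehmt2+/+ section 1, Ehmt2+/+ section 2, Ehmt2 fl/fl section 1 and Ehmt2 fl/fl section 2. The number is also that of the slide, so section 1 of each genotype lay on slide 1 and section 2 of each on slide 2.

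Fibroblasts and stellate cells make the interstitial matrix of the pancreas. They secrete procollagen chains that are folded, hydroxylated and trimmed, then assembled into fibrils whose spacing is set by proteoglycans such as decorin and lumican, and crosslinked by lysyl oxidases. In the healthy organ this matrix is thin and lies mainly around ducts, vessels and lobules, where smooth muscle, endothelium, fat and nerves also sit. In acute pancreatitis fibroblasts also take part in inflammation, through complement, cytokines and matrix-degrading enzymes.

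Type I collagen is built from the products of Col1a1 and Col1a2, and type III collagen, which is prominent in soft and vessel-rich tissue, from that of Col3a1. Dcn encodes decorin and Lum lumican. In the GRCm38 annotation the genes lie at chr11:94936224-94953042 (Col1a1), chr6:4504814-4541544 (Col1a2), chr1:45311538-45349706 (Col3a1), chr10:97479609-97518143 (Dcn) and chr10:97565128-97572703 (Lum), all on the plus strand. Because Col1a2 and Col3a1 supplied most of the UMIs that chose the spots, the 150 bases before the start site of each, on the plus strand, are shown from RefSeq for GRCm38.p6, at chr6:4505468-4505617 and chr1:45311388-45311537. The positions of the genes above are those of GENCODE, which starts Col1a2 upstream of the RefSeq start, so the Col1a2 window lies inside the GENCODE gene. Capitals mark matches to CCAAT or TATAA on either strand.
Col1a2: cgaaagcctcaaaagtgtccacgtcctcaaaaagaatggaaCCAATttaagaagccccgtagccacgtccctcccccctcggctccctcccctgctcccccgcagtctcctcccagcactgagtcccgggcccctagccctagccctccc
Col3a1: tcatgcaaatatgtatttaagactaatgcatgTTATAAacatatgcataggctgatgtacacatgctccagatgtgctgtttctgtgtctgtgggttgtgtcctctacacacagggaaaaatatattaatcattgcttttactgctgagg
The Col1a2 window held 1 CCAAT, 109 bases before the start, and no TATAA. The Col3a1 window held TTATAA, in which TATAA on both strands overlaps, 117 bases before the start, and no CCAAT. Of 32851 RefSeq promoters, 24.5% held CCAAT and 14.2% held TATAA in a window of this length, so neither match is rare. These are letters in a window and were not tied to the counts.

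The sections differed in depth before any spot was chosen. Over all listed spots they held 44520453, 8914187, 7195548 and 8685493 UMIs, and 6147, 7908, 6497 and 6488 spots had at least 500. Ehmt2+/+ section 1 stood apart, with a median of 6519 UMIs in its other spots against 884, 994 and 1127 in the rest. Olfactory receptor genes, which the pancreas is not known to use and whose UMIs are taken here as a gauge of background signal, were far scarcer there too. Scaled to 1000000 UMIs (CPM) they stood at 308 in its other spots against 5723, 9809 and 14293. Genes of digestive enzymes made up 65.8%, 55.0%, 23.2% and 22.6% of what was counted in the other spots, lower in both Ehmt2 fl/fl sections than in both Ehmt2+/+ sections. Since all CPM are relative to the total, a lower enzyme share raises the CPM of every other gene.

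Matrix-rich spots were shallow spots. Their median UMIs were 1552.5, 628.5, 778 and 878, in every section below that of the other spots, and they ranged from 500 to 9141. The score that chose them is a description and carries no test. Its lowest value among the 200 was 0.225%, 0.349%, 0.619% and 0.589%, its median 0.334%, 0.429%, 0.740% and 0.709%, and its highest 2.78%, 0.921%, 1.92% and 1.33%. At the median and at the lowest rank the collagen share was therefore higher in both Ehmt2 fl/fl sections than in both Ehmt2+/+ sections, while the highest single spot lay in Ehmt2+/+ section 1.

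The choice rested on few molecules. A matrix-rich spot held a median of 7, 3, 6 and 7 UMIs of the 5 genes, and 24.5%, 75.5%, 0% and 2.5% of them held at most 3. The edge was a close call in every section. In Ehmt2+/+ section 1 the last spot inside had 2 of 888 UMIs and the first outside 7 of 3117, and in Ehmt2+/+ section 2 both had 2 of 573. In Ehmt2 fl/fl section 1 they had 7 of 1130 and 7 of 1132, and in Ehmt2 fl/fl section 2 they had 9 of 1529 and 3 of 510. A fixed share in place of a fixed number would have given other sizes, since 42, 53, 436 and 370 spots reached 0.5%.

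**Figure D1:**
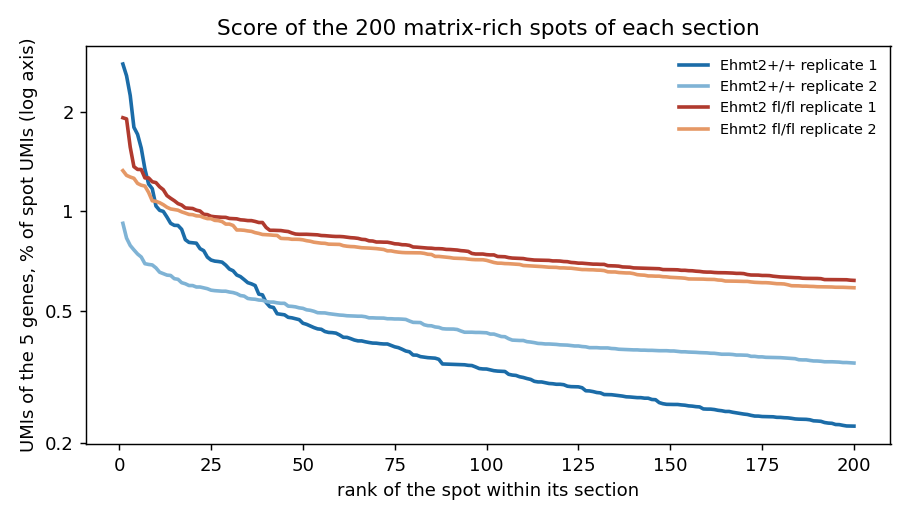
Score of the 200 matrix-rich spots of each section, as UMIs of the 5 genes in percent of the spot's UMIs on a log axis, against the rank of the spot; each line is a section, called a replicate in the key. The lines of both Ehmt2 fl/fl sections end at 0.619% and 0.589%, above those of both Ehmt2+/+ sections, which end at 0.225% and 0.349%.

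Summed over the 200 spots, the 5 genes reached 3792, 4594, 7958 and 7519 CPM against 377, 457, 1813 and 1699 in the other spots. Col1a2 gave 40.1%, 46.9%, 52.3% and 54.9% of these UMIs and Col3a1 45.2%, 39.9%, 36.0% and 36.2%, so together they made up most of the score in each section. Col1a1 gave 11.1%, 6.82%, 7.38% and 5.03% and Dcn 3.12%, 5.52%, 3.65% and 3.20%. Lum added only 7, 5, 9 and 10 UMIs. These are shares of UMIs, which also depend on the probes for each gene. Per UMI outside the digestive enzymes, the 5 genes stood at 8087, 7141, 9161 and 8112 CPM in the matrix-rich spots and at 1102, 1016, 2362 and 2195 in the others. On that scale the matrix-rich spots of both Ehmt2 fl/fl sections lay just above those of both Ehmt2+/+ sections, with 8112 as the lower and 8087 as the upper neighbour.

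How much of the excess came from the choice itself was measured by leaving each gene out in turn and ranking the spots by the other 4. Col3a1 was then 5.90, 2.45, 1.95 and 2.40 times as high in the chosen spots as in the others, Col1a2 7.90, 2.73, 1.81 and 2.08 times and Col1a1 7.48, 3.51, 1.91 and 1.34 times. Dcn, which had little weight in the score, was 9.29, 3.70, 2.70 and 2.61 times as high. Lum rested on 6, 1, 4 and 7 UMIs and was 7.20, 0.741, 1.50 and 2.36 times as high, without 1 direction. Col1a1, Col1a2, Col3a1 and Dcn were thus above the other spots in each section without their own part in the choice, where all 5 genes with it had stood at 10.05, 10.05, 4.39 and 4.43 times. Olfactory receptor genes were also 1.76 to 2.21 times as high in the spots so chosen in Ehmt2+/+ section 2, close to the excess of Col3a1 there, and 1.26 to 1.30 times as high in Ehmt2 fl/fl section 2, close to the 1.34 times of Col1a1.

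**Figure D2:**
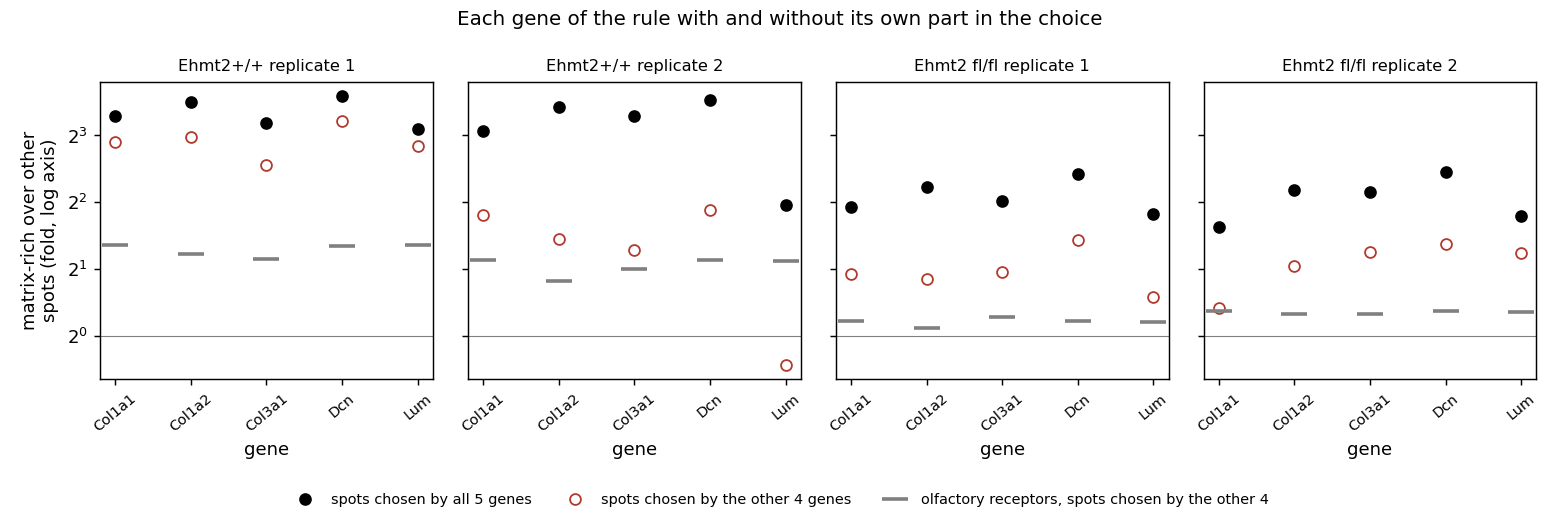
Level in matrix-rich over other spots, as fold on a log axis, for each gene of the rule in each section; filled points are spots chosen by all 5 genes, open points spots chosen by the other 4, and grey bars olfactory receptor genes in the latter. Leaving a gene out lowers its own fold in each section, for Col3a1 to 5.90, 2.45, 1.95 and 2.40.

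The UMIs of every spot were also divided at random into equal parts, with spots chosen on the first and measured on the other. In the unused UMIs the 5 genes were 7.43, 2.91, 2.15 and 2.09 times as high in the matrix-rich spots as in the others. The list of 20 fibroblast markers outside the rule was 6.21, 2.04, 1.70 and 1.89 times as high. Olfactory receptor genes were 2.63, 1.79, 1.22 and 1.24 times as high in the same UMIs.

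The name of the spots was checked against those 20 fibroblast markers. Together they reached 1587, 1298, 2961 and 2878 CPM in the matrix-rich spots and 270, 517, 1522 and 1416 CPM in the others, or 5.87, 2.51, 1.95 and 2.03 times as much. Over the excess of olfactory receptor genes in the same spots this left 2.29, 1.14, 1.71 and 1.58 times. In Ehmt2+/+ section 2 the fibroblast markers thus exceeded the background genes by little, and the name is weakly borne out there. The defining receptor Pdgfra had only 6, 1, 9 and 18 UMIs in the matrix-rich spots, and Pdgfrb, shared with pericytes, 23, 14, 34 and 49. With so few molecules the spots are called matrix-rich below.

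Across all genes, 98 of the 20174 with at least 20 UMIs, or 0.486%, were at least 2-fold higher in the matrix-rich spots of all 4 sections, and 0, or 0%, were at least 2-fold lower in all 4. These counts describe spots that were chosen on this contrast and have no test, and which genes met the limit changed with how the spots were chosen. Of the 98 genes, 63 had at most 3 UMIs in the matrix-rich spots of some section. Using only spots with at least 1000 UMIs gave 49 such genes, of which 15 were among the 98, and counting UMIs outside the digestive enzymes gave 33 higher and 2 lower. Choosing spots on one part of the UMIs and measuring the other gave 91, of which 19 were among the 98. Without Ehmt2 fl/fl section 1 the count of higher genes was 466, without Ehmt2 fl/fl section 2 it was 467, and without either Ehmt2+/+ section it was 192 or 184.

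Among the fibroblast markers, 4 of 20 were at least 2-fold higher in all 4 sections, beside 0.486% of the 20174 genes counted. Mgp, which encodes matrix Gla protein, an inhibitor of calcification made by fibroblasts and vessel walls, stood at 343, 134, 403.5 and 167 CPM against 26.8, 46.4, 67.3 and 33.0 CPM in the other spots. Col5a1, a chain of type V collagen, which starts the assembly of type I fibrils, stood at 156, 231, 522 and 511 CPM against 36.7, 71.3, 239 and 224 CPM. Both were higher in the matrix-rich spots of each section, and the Ehmt2 fl/fl sections were above the Ehmt2+/+ sections in both kinds of spot for Col5a1 but not for Mgp.

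Col6a3, a chain of the beaded filaments of type VI collagen, stood at 75.7, 112, 220 and 255 CPM against 23.4, 48.3, 107 and 123 CPM. Clec3b, the gene of tetranectin, stood at 104, 74.6, 94.9 and 300 CPM against 7.38, 24.5, 46.6 and 51.2 CPM. Col5a2 and Fbn1, the latter encoding fibrillin, were higher in each section but not always by 2-fold, at log2 ratios of 2.91, 2.38, 0.85 and 0.51 for Col5a2 and 2.57, 1.07, 0.86 and 0.88 for Fbn1. Dpt, the gene of dermatopontin, was picked after its values were seen as a marker that failed in 1 section, at log2 ratios of 3.02, -0.05, 1.80 and 1.75. Over genes for which at least 5 UMIs were expected, the median log2 ratio of the fibroblast list was 2.09, 1.53, 0.86 and 0.93, beside 0.45, 0.29, 0.16 and 0.24 over all such genes.

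Among 36 glycoproteins of the matrix, 3 were at least 2-fold higher in all 4 sections, beside 0.486% of the 20174 genes counted. Eln encodes elastin, the rubber-like protein of vessel walls and ligaments, and stood at 189, 89.5, 303 and 118 CPM against 5.58, 15.5, 56.2 and 46.3 CPM. Nid1, which encodes a linker of basement membranes, and Tnxb, which encodes tenascin X of loose connective tissue, were the other two. Fn1, the gene of fibronectin, stood at 78.1, 97.0, 498 and 280 CPM against 22.3, 30.5, 314 and 252 CPM. Its log2 ratio was 1.81 and 1.67 in Ehmt2+/+ and 0.66 and 0.15 in Ehmt2 fl/fl, where the other spots also held much of it. The list as a whole was 4.69, 2.32, 1.68 and 1.50 times as high in the matrix-rich spots. Over the excess of the olfactory receptor genes this was 1.83, 1.05, 1.47 and 1.16 times, so in Ehmt2+/+ section 2 it was close to that background.

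Other collagens differed less between the kinds of spot. None of 19 was 2-fold higher in all 4 sections, where 0.486% of the 20174 genes counted were, so that count says little. The list was 3.23, 1.91, 1.38 and 1.59 times as high. Over the excess of the olfactory receptor genes this was 1.26, 0.865, 1.21 and 1.23 times, so in Ehmt2+/+ section 2 the list did not exceed that background. Col4a1, a chain of the type IV collagen of basement membranes, which epithelium and vessels also have, stood at 554, 723, 1668 and 1940 CPM against 153, 350, 1178 and 1087 CPM. The 26 genes that fold, modify, trim or crosslink collagen were at 0.719 and 0.654 times that background in the Ehmt2+/+ sections and at 1.28 and 1.16 times in the Ehmt2 fl/fl sections. Of these 26, only Adamts2, whose product trims procollagen ends, passed in all 4, at log2 ratios of 2.36, 1.86, 1.34 and 1.12. Serpinh1, the gene of the collagen chaperone HSP47, stood at 130, 112, 320 and 177 CPM against 36.1, 56.1, 154 and 113 CPM and missed 2-fold in 2 sections.

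The 25 genes of matrix breakdown and its inhibitors summed to 1.09, 0.90, 1.06 and 1.06 times the level of the other spots. The lysosomal protease gene Ctsl alone gave 1868 of 2302, 568 of 728, 300 of 881 and 317 of 938 of their UMIs, and stood at log2 ratios of -0.03, -0.36, -0.44 and -0.53. Without it the list was 2.02, 1.94, 1.38 and 1.46 times as high, a value computed after the sums were seen and below the 2.56 and 2.21 times of the olfactory receptor genes in the Ehmt2+/+ sections. Timp3, which encodes a matrix-bound inhibitor of metalloproteinases, stood at 203, 336, 997 and 1169 CPM against 26.3, 112, 642 and 688 CPM. Timp2, the gene of a related inhibitor, was at log2 ratios of 2.78, 1.73, 0.71 and 1.09. Both were higher in the matrix-rich spots of each section.

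Genes of signalling in fibroblasts were less marked by the choice. Of 24 genes of the TGF-beta pathway, the main inducer of collagen synthesis, 0 were 2-fold higher in all 4 sections, and the list was 2.27, 1.65, 1.27 and 1.26 times as high. Of 13 genes of the PDGF and FGF pathways 0 passed, with a list ratio of 1.47, 1.65, 1.04 and 1.13, and of 26 mesenchymal transcription factors 0 passed, with 2.49, 2.01, 1.17 and 1.45. Complement was higher, at 5.36, 2.90, 1.88 and 2.49 times, and 2 of its 10 genes passed, C1s1, a protease of the classical pathway, and Cfd, the gene of factor D, which fat also makes. The 24 genes of inflammatory fibroblasts stood at 3.26, 2.44, 1.20 and 1.28 times, with 0 passing. Of the 20174 genes counted 0.486% passed, so 0 in lists of this size says little about them. Olfactory receptor genes stood at 2.56, 2.21, 1.14 and 1.29 times, and in both Ehmt2+/+ sections the TGF-beta, PDGF and FGF and transcription factor lists lay below them. The PDGF and FGF list also lay below them in both Ehmt2 fl/fl sections, and the TGF-beta and inflammatory fibroblast lists in Ehmt2 fl/fl section 2.

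**Figure D3:**
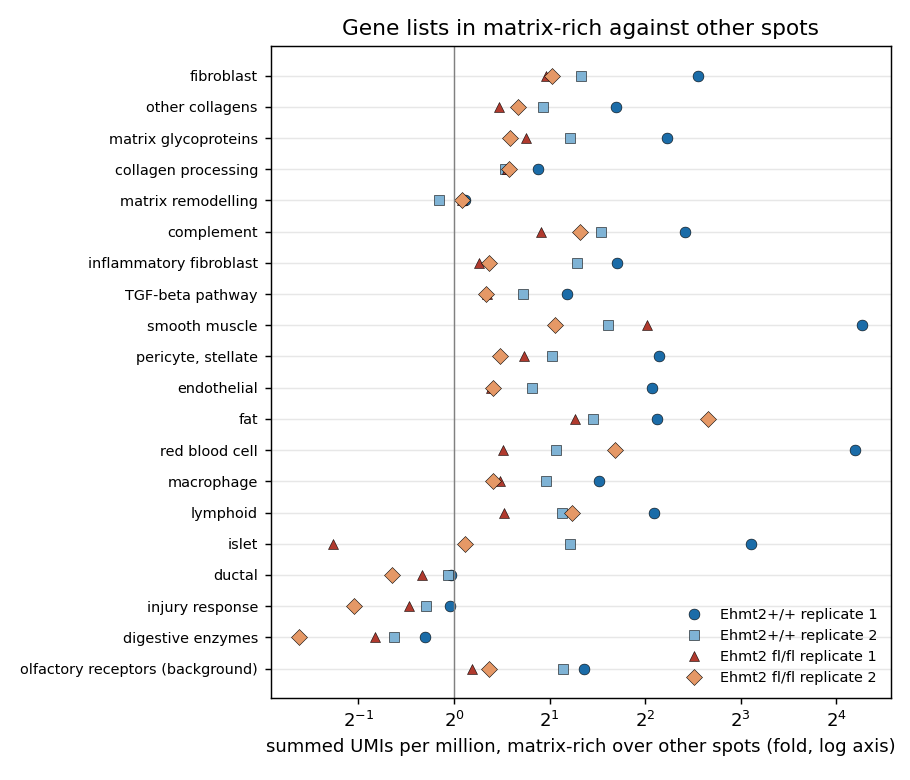
Summed CPM of each gene list in matrix-rich over other spots, as fold on a log axis, with 1 point per section; the line marks equal levels. Smooth muscle, fat and fibroblast lists lie right of the line in each section, at 2.08 to 19.4, 2.41 to 6.34 and 1.95 to 5.87 times, and acinar genes left of it at 0.808 to 0.324 times.

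Markers of several other cell types were also higher in the matrix-rich spots. Smooth muscle genes were 19.4, 3.06, 4.05 and 2.08 times as high in the matrix-rich spots. Of these 12 genes 4 passed 2-fold in all 4 sections, beside 0.486% of the 20174 genes counted. Myh11, the smooth muscle myosin heavy chain, stood at 89.9, 59.7, 208 and 98.2 CPM against 1.41, 9.83, 23.4 and 21.4 CPM. Tagln, Des and Myl9, genes of the contractile machinery, also passed. Acta2, which smooth muscle and activated stellate cells share, had 21, 2, 13 and 0 UMIs in the matrix-rich spots, too few for a level.

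Fat markers were 4.36, 2.75, 2.41 and 6.34 times as high, and 3 of 14 passed, beside 0.486% of the 20174 genes counted. Car3, a carbonic anhydrase abundant in fat, stood at 114, 172, 344 and 1611 CPM against 2.14, 29.2, 56.9 and 132 CPM. Fabp4, the fatty acid carrier of fat and of some endothelium, stood at 182, 261, 570 and 1935 CPM against 38.4, 83.1, 263 and 293 CPM. Both were highest in Ehmt2 fl/fl section 2. Adipoq, the defining adipokine, had only 2, 2, 7 and 15 UMIs.

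Over the excess of the olfactory receptor genes, the endothelial list stood at 1.64, 0.797, 1.14 and 1.03 times, the macrophage list at 1.12, 0.879, 1.22 and 1.03 times and the lymphoid list at 1.67, 0.989, 1.26 and 1.83 times. In Ehmt2+/+ section 2 these lists did not exceed the background genes. Unscaled, the endothelial list was 4.20, 1.76, 1.31 and 1.33 times as high, and the tight junction gene Cldn5 was its 1 gene that passed in all 4 sections. Macrophage markers stood at 2.87, 1.94, 1.39 and 1.33 times and lymphoid markers at 4.28, 2.19, 1.43 and 2.36 times. Igkc, the constant part of the kappa antibody chain made by plasma cells, stood at 18.9, 59.7, 154 and 555 CPM against 1.61, 17.1, 50.6 and 123 CPM. Red blood cell genes reached 18.4 times in Ehmt2+/+ section 1 and 2.09, 1.43 and 3.22 times elsewhere, which in Ehmt2+/+ section 2 was 0.947 times the excess of the olfactory receptor genes. The islet list stood at 8.62, 2.32, 0.415 and 1.08 times, so its direction differed between sections.

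Acinar genes were lower in the matrix-rich spots of each section, at 0.808, 0.648, 0.565 and 0.324 times the other spots, and still took 53.1%, 35.7%, 13.1% and 7.32% of their UMIs. Duct markers summed to 0.981, 0.956, 0.792 and 0.636 times, but their median log2 ratio was 0.23, 0.18, -0.27 and -0.71, so sum and median differed in sign in both Ehmt2+/+ sections. The keratin gene Krt18 was lower in each section, at log2 ratios of -0.41, -0.46, -0.66 and -1.15, while Epcam was at 0.37, 0.38, -0.47 and -0.55. The part of these other cell types in the level of any matrix gene was not tested.

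The 15 genes outside the rule with the highest smallest ratio included Car3, Cfd, Myh11, Igkc, Mgp and Cldn5, described above. They also held Ppp1r14a, an inhibitor of smooth muscle myosin phosphatase, at 215, 127, 350 and 211 CPM against 16.0, 38.4, 77.6 and 63.6 CPM. Aoc3, an amine oxidase of fat and vascular smooth muscle, stood at 61.5, 44.8, 71.2 and 138 CPM against 3.69, 11.6, 25.6 and 29.6 CPM. Atp1b2, Ighg3, Alox15, Cd209c, Wfdc1, Prrg3 and the vomeronasal receptor Vmn2r96 were the rest. Several rested on very few molecules. Wfdc1 had 3, 1, 4 and 3 UMIs, Prrg3 1, 2, 5 and 4, Vmn2r96 1, 1, 2 and 4 and Ighg3 1, 2, 5 and 7 in the matrix-rich spots, and Alox15 and Cd209c had 1 each in Ehmt2+/+ section 1.

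Single spots were set beside each other after thinning each to 500 UMIs. At least 1 UMI of the fibroblast list was then found in 44.0%, 48.5%, 75.5% and 73.5% of the matrix-rich spots and in 14.2%, 23.2%, 51.6% and 49.9% of the others. The 95% Clopper-Pearson intervals of the matrix-rich spots were 37.0% to 51.2%, 41.4% to 55.7%, 68.9% to 81.3% and 66.8% to 79.5%, and here as below they cover counting error only. In each section the matrix-rich spots lay above the others by more than that error. Without thinning the shares were 74.5%, 53.5%, 86.5% and 86.0% against 75.0%, 38.4%, 74.4% and 76.6%, so in Ehmt2+/+ section 1, whose other spots were the deepest, they no longer differed in that direction.

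Smooth muscle genes were found in 18.5%, 12.5%, 24.5% and 21.5% of the thinned matrix-rich spots against 1.60%, 4.89%, 11.1% and 10.97% of the others. Fat markers were found in 14.5%, 18.5%, 31.5% and 45.0% against 5.57%, 11.1%, 23.3% and 24.9%. Duct markers were found in 82.5%, 77.5%, 79.5% and 62.5% against 81.6%, 80.8%, 88.0% and 84.1%. Of 15 lists of other cell types, 10 had a higher share in the matrix-rich spots of all 4 sections, and 5 did without thinning. Olfactory receptor genes were themselves found in 41.5%, 97.5%, 99.0% and 100% of the thinned matrix-rich spots against 17.3%, 89.8%, 98.0% and 99.3% of the others, so a higher share in all 4 sections was also met by background genes. The 10 lists include neutrophil, endothelial and macrophage markers, which in the summed spots did not exceed those genes in at least 1 section. The 5 others were the acinar, duct, islet, nerve and mast cell lists.

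**Figure D4:**
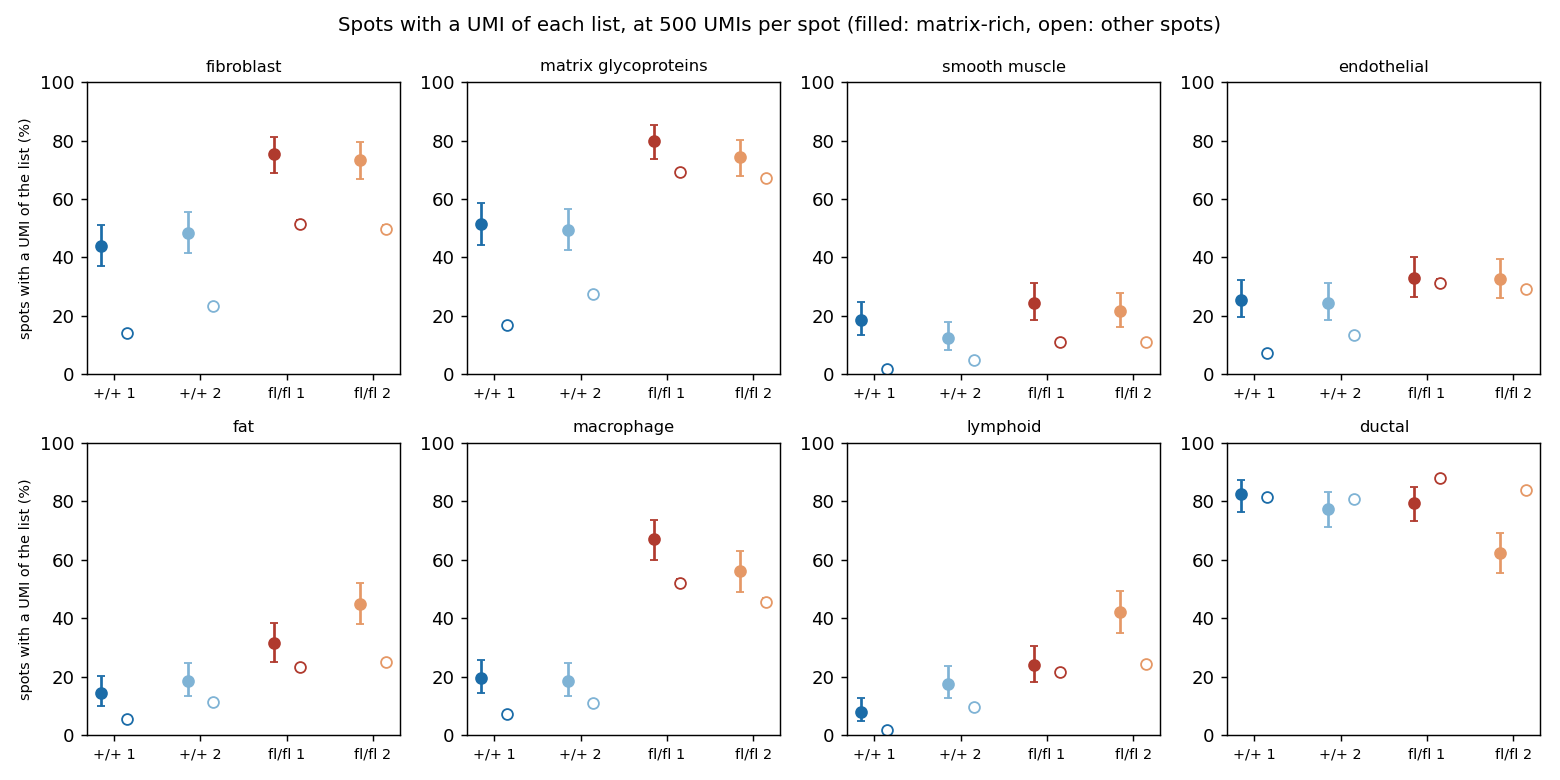
Share of spots with at least 1 UMI of each of 8 lists after thinning to 500 UMIs, in percent, per section; filled points are matrix-rich spots, open points other spots, and bars 95% Clopper-Pearson intervals. Fibroblast markers lie at 44.0% to 75.5% in matrix-rich and 14.2% to 51.6% in other spots, and duct markers do not separate the kinds of spot in the same way.

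Markers of other cell types were spread unevenly over the matrix-rich spots. At full depth, at least 2 UMIs of smooth muscle genes were found in 40, 3, 31 and 17 of the 200 spots of each section, of endothelial genes in 59, 6, 44 and 49, and of fat genes in 31, 14, 31 and 74. For smooth muscle this was 20%, 1.5%, 15.5% and 8.5% of the matrix-rich spots, against 2.37%, 0.649%, 3.51% and 4.21% of the others. For endothelial genes it was 29.5%, 3.0%, 22.0% and 24.5% against 26.6%, 3.80%, 18.9% and 21.0%, so the kinds of spot were close. For fat genes it was 15.5%, 7.0%, 15.5% and 37.0% against 19.2%, 3.24%, 11.3% and 15.8%, lower than in the others in Ehmt2+/+ section 1. Lymphoid genes reached this level in 11, 9, 22 and 59 spots and duct genes in 175, 119, 135 and 108. Fat and lymphoid genes came together in 5, 2, 5 and 38 spots, mostly in Ehmt2 fl/fl section 2. Spots with smooth muscle and endothelial genes together, as in a vessel wall, numbered 28, 1, 12 and 8. Acinar genes aside, none of 14 lists of other cell types reached 2 UMIs in 13, 52, 13 and 16 spots. The spots of a section differ in depth, which bears on such counts, and depth was lowest in the matrix-rich spots of Ehmt2+/+ section 2. The numbers of lymphoid and fat spots were highest in Ehmt2 fl/fl section 2, and the part of depth in this was not tested.

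The first 100 spots of each section differed from the next 100. The 5 genes stood at 5724, 5370, 9217 and 8739 CPM in the first and 2682, 3819, 6745 and 6455 CPM in the next. Fibroblast markers stood at 2697, 1298, 3471 and 3120 CPM and then 950, 1298, 2470 and 2666 CPM. Smooth muscle genes stood at 920, 254, 1367 and 622 CPM and then 223, 283, 641 and 368 CPM. The top of the ranking was thus richer in these markers in 3 sections, and in Ehmt2+/+ section 2 the fibroblast list stood alike in both while smooth muscle genes were lower at the top.

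Spots chosen in the same way for smooth muscle genes overlapped with the matrix-rich spots in 40 of 181, 3 of 53, 29 of 200 and 14 of 200. For fat genes 26, 14, 21 and 47 of 200 spots were shared, and for duct genes 12, 7, 4 and 4. Independent placing would give 5.89, 1.34, 6.16 and 6.17 shared spots for smooth muscle genes and 6.51, 5.06, 6.16 and 6.17 for fat and for duct genes. The overlap with duct-rich spots was thus below that number in both Ehmt2 fl/fl sections and above it in both Ehmt2+/+ sections, by few spots each. Independent placing takes no account of the depth of spots, and the part of depth in these overlaps was not tested. Barcodes mark positions on the slide, and 2 to 8 matrix-rich barcodes were shared by a pair of sections, where independent placing would give between 2.79 and 2.88.

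The second question was whether matrix-rich spots differed between the genotypes. Ehmt2 itself had 8, 0, 1 and 5 UMIs in the matrix-rich spots. In the other spots it stood at 19.8, 4.01, 10.2 and 11.7 CPM, with overlapping values, so its level does not bear out the labels. Whether its probes lie in the deleted part was not known, and a probe outside it would check nothing. The genotype is therefore that of the labels. Y-linked Uty had 0, 0, 7 and 7 UMIs and Eif2s3y 0, 0, 4 and 2, so sex, capture position and genotype cannot be told apart.

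With UMIs summed over the 200 spots and each section as 1 replicate, 0 of 3039 genes, or 0%, passed edgeR's quasi-likelihood test at an adjusted p under 0.05, and the smallest adjusted p was 0.0829. At an unadjusted p under 0.05, 185 genes, or 6.09%, were higher and 225, or 7.4%, lower in the sections labelled Ehmt2 fl/fl. DESeq2 called 67 genes in the same sums, and edgeR with the slide as a block, which leaves 1 residual degree of freedom, called 160. Leaving out a section leaves 1 section in a genotype, where the other genotype alone gives the spread, so calls from such fits are not read here. With 2 sections against 2 an exact permutation test has only 6 splits and cannot reach a p under 0.05. The sections of a genotype did not overlap for many genes, with 723 genes, or 23.8%, above in both Ehmt2 fl/fl sections and 660, or 21.7%, below in both.

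Of the 5 genes with the smallest p in each direction, those reported are given as not called. Upward these were Mmp7 and Hp with the Y-linked predicted genes Gm20854 and Gm21310. Mmp7 encodes matrilysin, a metalloproteinase made by injured epithelium, and stood at 10.3, 36.5, 399 and 472 CPM after TMM scaling, a log2 difference of 4.49 ± 0.57 (SE) with an edgeR adjusted p of 0.0829. Hp encodes haptoglobin, an acute phase protein that binds haemoglobin, and stood at 30.9, 18.2, 268 and 375 CPM, a log2 difference of 3.57 ± 0.46 with an adjusted p of 0.0829. For Mmp7 and Hp both Ehmt2 fl/fl sections were above both Ehmt2+/+ sections. Within slide 1 and slide 2 the differences were 5.15 and 3.66 for Mmp7 and 3.08 and 4.29 for Hp.

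Downward they were Tff2, Cuzd1, Clps, Lbh and Klk1. Clps, the gene of colipase, and Klk1, the gene of tissue kallikrein, are in the list of acinar genes used here. Cuzd1, the gene of a zymogen granule protein, also belongs to acinar cells. Tff2 encodes a trefoil peptide of mucous secretions and stood at 1324, 939, 101 and 59.9 CPM after TMM scaling, a log2 difference of -3.82 ± 0.44 with an edgeR adjusted p of 0.0829. Clps stood at 2120, 1076, 123 and 71.2 CPM, a log2 difference of -4.05. Klk1 was at -3.78, Cuzd1 at -3.23 and Lbh at -2.66. All 5 were lower in both Ehmt2 fl/fl sections. Of the 25 acinar genes tested 22 were lower in both, beside 21.7% of all genes tested, and the enzyme share of the other spots was lower in both as well. With the slide as a block, at 1 residual degree of freedom, Mmp7, Hp, Tff2, Cuzd1, Clps, Lbh and Klk1 passed, with edgeR adjusted p of 7.37e-09 for Mmp7, 1.38e-06 for Hp, 3.78e-11 for Tff2 and 1.94e-12 for Clps.

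The raw levels of these genes were set beside those of the other spots. Mmp7 stood at 7.10, 29.8, 540 and 619 CPM in them and at 2.77, 14.4, 461 and 524 CPM in the others. Hp stood at 21.3, 14.9, 362 and 491 CPM against 1.80, 16.0, 80.1 and 80.9 CPM, so it was higher in the matrix-rich spots of every section but Ehmt2+/+ section 2. After TMM scaling of each sum, its ratio of matrix-rich to other spots differed between the genotypes by 1.48 on the log2 scale. The edgeR adjusted p of that difference was 0.436. The median of such differences over all genes tested was 0.59, and -0.58 without TMM factors, so 1.48 holds only relative to the scaling.

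No difference was detected in the fibroblast list. Of its 12 genes tested 0 passed an unadjusted p under 0.05, 3 were above in both Ehmt2 fl/fl sections and 0 below, and the median log2 difference was 0.03 beside 0.02 over all genes tested. Of all genes tested 23.8% were above in both and 21.7% below, and the 3 of 12 were near that share. The 5 other collagens tested had a median of 0.69, with 4 above in both and 0 at an unadjusted p under 0.05. Of 17 matrix glycoproteins 8 were above in both and 0 below, with a median of 0.35, and of 8 genes of collagen processing 1 was above and 1 below. Without TMM factors, the median over all genes tested was 0.86, so these directions hold only relative to the scaling.

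Among matrix genes with a small unadjusted p, Emilin1, which encodes an elastic fibre glycoprotein, differed by 1.22 ± 0.34 on the log2 scale with an edgeR adjusted p of 0.235. Fn1 differed by 1.33 ± 0.41 with an adjusted p of 0.258 and Timp3 by 1.22 ± 0.36 with an adjusted p of 0.240. With the slide as a block the adjusted p of Timp3 was 0.0198, of Emilin1 0.0503 and of Fn1 0.0643. Ctsl went the other way, with 6408, 5178, 1316 and 1188 CPM after TMM scaling, a log2 difference of -2.21 ± 0.41, an edgeR adjusted p of 0.106 and one of 3.31e-09 with the slide as a block. Of the 7 genes of matrix breakdown and its inhibitors tested 3 were above in both Ehmt2 fl/fl sections and 1 below, with a median of 0.99. Over all genes tested 23.8% were above in both and 21.7% below, with a median of 0.02. Within slide 1 and slide 2 the differences were 1.46 and 0.95 for Emilin1, 1.69 and 0.84 for Fn1 and 1.32 and 1.12 for Timp3. For these genes both Ehmt2 fl/fl sections lay above both Ehmt2+/+ sections. Their direction within a slide was thus fixed in advance and adds no support.

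Lists of inflammatory genes were counted in the same way. Beside the counts that follow, 23.8% of all genes tested were above in both Ehmt2 fl/fl sections and 6.09% were higher at an unadjusted p under 0.05. Of 8 genes of inflammatory fibroblasts 6 were above in both Ehmt2 fl/fl sections and 0 below, with a median log2 difference of 1.47 and 4 at an unadjusted p under 0.05. Cxcl14, a chemokine of fibroblasts and epithelium, differed by 2.28 ± 0.38 with an edgeR adjusted p of 0.104. C3, the central complement protein, stood at 148, 137, 386 and 333 CPM after TMM scaling and differed by 1.33 ± 0.33 with an adjusted p of 0.185. With the slide as a block the adjusted p was 0.00084 for Cxcl14 and 0.0396 for C3, so both passed there. Raw levels in the other spots went the same way. They were 12.4, 34.0, 425 and 388 CPM for Cxcl14 and 21.5, 46.4, 340 and 265 CPM for C3. Of 7 complement genes 6 were above in both and 0 below, with a median of 0.86, and of 10 genes of the TGF-beta pathway 7 were above and 1 below, with a median of 0.51. All 9 macrophage markers tested were above in both, with a median of 1.29, as were all 4 lymphoid markers, with a median of 2.83, and 4 of 5 fat markers, with a median of 1.71. Ehmt2 fl/fl section 2 weighed on the fat and lymphoid values. Without it the log2 difference fell from 1.71 to 0.54 for Fabp4, from 2.01 to 0.46 for Car3 and from 2.60 to 1.34 for Igkc. The part of these cells in the inflammatory genes was not tested.

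**Figure D5:**
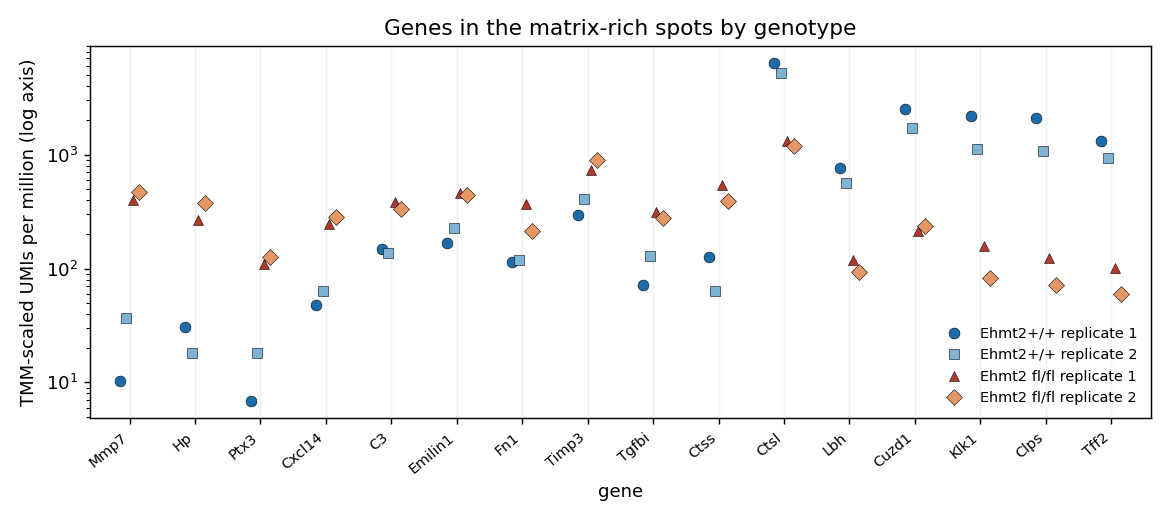
Level of 16 genes in the matrix-rich spots of each section, as TMM-scaled CPM on a log axis, with 1 point per section. From Mmp7 to Ctss both Ehmt2 fl/fl sections lie above both Ehmt2+/+ sections, and from Ctsl to Tff2 below; no gene passed edgeR's adjusted p of 0.05.

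The share of matrix-rich spots that held a marker was set beside these sums. After thinning, macrophage markers were found in 19.5% and 18.5% of the spots in the Ehmt2+/+ sections and in 67.0% and 56.0% in the Ehmt2 fl/fl sections. Their mean difference of 42.5 percentage points was beside one of 28.25 points for fibroblast markers, 21.75 for fat and 20.25 for lymphoid markers. The genotypes did not overlap for 11 of 16 lists, these 4 among them, and all 11 were higher in the Ehmt2 fl/fl sections. Background genes met this too. Olfactory receptor genes were found in 41.5% and 97.5% of the spots in Ehmt2+/+ and in 99% and 100% in Ehmt2 fl/fl. Among single genes tested in the sums, which is another measure, 23.8% were above and 21.7% below without overlap. In the other spots macrophage markers were found in 7.05%, 11.01%, 52.0% and 45.6%, again without overlap. Thinning leaves the digestive enzymes among the UMIs, and their share was lower in both Ehmt2 fl/fl sections. Per 1000000 UMIs outside the enzymes, fibroblast markers in the matrix-rich spots stood at 3385, 2017, 3409 and 3105, where the genotypes overlapped. On that scale macrophage markers stood at 772, 661, 2548 and 1807, fat markers at 1004, 1101, 1626 and 5103 and lymphoid markers at 262, 684, 943 and 1849, without overlap.

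Whether the matrix-rich spots differed from the rest of their section by another amount in each genotype was tested as an interaction, with the section as a block. Of 19997 genes 0, or 0%, passed an adjusted p under 0.05 in edgeR, the smallest adjusted p being 0.155, and DESeq2 called 0. In simulated counts with a dispersion of 0.05 the edgeR fit recovered only 6 of 200 genes shifted by 2 in log2. Few real differences would thus have been called, and 0 calls do not show equal ratios. At an unadjusted p under 0.05 the ratio was higher in the Ehmt2 fl/fl sections for 1843 genes, or 9.22%, and lower for 127, or 0.635%. The median over all genes tested turned with the scaling, from 0.59 to -0.58 without TMM factors. Without these factors 0 genes were called higher and 124 lower at an adjusted p under 0.05. That is another threshold than the one of the 1843 and 127 genes. For the fibroblast list the median with TMM factors was 0.33, and 0 of its 20 genes had an unadjusted p under 0.05. Of 9 islet genes 7 had a lower ratio at an unadjusted p under 0.05, among them Ins1 and Ins2. Leaving out Ehmt2+/+ section 2 moved the median over all genes tested from 0.59 to 1.14.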

How the data were processed

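The authors counted UMIs of FFPE sections on mm10 with Space Ranger 2.0.1 and the Visium probes for mouse. The deposited counts are whole UMIs of 32589 features per listed spot, with no normalization and with spots off the tissue. Of the features, 304 were marked deprecated and left out, leaving 32285. The deposited alignment files mark tissue by position without barcodes and could not be joined to the counts, so the limit of 500 UMIs stood in for tissue. No doublet caller was run on spots.

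The matrix-rich spots, the gene lists and the tests were chosen with earlier results of these data known. CPM are UMIs of a gene per 1000000 UMIs of the summed spots. Ratios of matrix-rich over other spots were described per section. A gene counted as higher or lower at 2-fold in the same direction in all 4 sections with at least 20 UMIs, and 3 counts stood in for a side without a UMI. Sums per section were tested with edgeR 4.0.16 in R 4.3.3 (quasi-likelihood, TMM, filterByExpr at a count of 10, with Benjamini-Hochberg adjustment). Standard errors were derived from the quasi-likelihood F. DESeq2 1.42.0 was an alternative, and the rest used Python 3.11.15. The mice of a genotype are separate animals, 2 per genotype, and the labels pair none of them across genotypes. Sections of the same number shared a slide, which the slide block takes into account.

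Named were the 5 genes of the rule and Ehmt2, up to 5 genes of each list with the highest CPM in matrix-rich spots, the 15 genes with the highest smallest ratio, and the 5 with the smallest genotype p in each direction, of which 1 is not reported here. Pdgfra, Pdgfrb, Dpt, Clec3b, Adipoq, Aoc3, Tnxb, Nid1 and Adamts2 were otherwise named as defining markers or as the genes behind a small count. In simulated counts, 200 genes were shifted by 2 in log2. With a dispersion of 0.05 the genotype fit on 2949 genes recovered 189 of them and made 14 false calls, and with 0.40 it recovered 0 of 191 on 2700 genes. The interaction fit on 18891 genes recovered 6 at 0.05. In the data the common dispersion was estimated as 0.0976 in the genotype fit and 0.0385 in the interaction fit. The alternatives changed the depth limit, the number of spots, the score, the scaling and filter, and left out sections, enzymes or lymphoid-rich spots. The slide block, the values within slides, the lymphoid-rich spots and the left-out genes were chosen after seeing the data.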

Additional observations from a re-analysis of the deposited data

Results flagged for a closer look

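In the ratio of matrix-rich to other spots, 8 of the 127 leading genes of the lists with a UMI in the matrix-rich spots of all 4 sections, or 6.3%, were above 0 on the log2 scale in both Ehmt2+/+ sections and below 0 in both Ehmt2 fl/fl sections. Of all 12025 genes with such UMIs, 1023, or 8.51%, did the same. The mean ratio of the Ehmt2 fl/fl sections was lower by the following amounts, given as log2 differences. It was -2.10 for Tnc, the gene of tenascin C of injured stroma, -1.23 for Cxcl14 and -2.45 for Ngfr, a receptor of nerves and stellate cells. It was -0.88 for the epithelial gene Epcam, -0.58 for Spp1, which encodes osteopontin, and -0.60 for Ehmt1, the partner of Ehmt2. Ngfr rested on 3, 2, 3 and 3 UMIs in the matrix-rich spots and Ehmt1 on 2, 2, 3 and 5. The insulin genes had -2.71 for Ins2 and -2.82 for Ins1.

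These raw differences were not tested as such. The interaction in edgeR, which rescales each sum by TMM, gave -1.76 ± 0.54 for Ins1 and -1.59 ± 0.56 for Ins2, with adjusted p of 0.325 and 0.383, and 0 of the 8 genes passed. After that scaling Epcam, Spp1 and Ehmt1 were at 0.30, 0.64 and 0.71, the opposite direction, and Cxcl14 was at -0.04, so the differences of these 4 depend on the scaling. Ins2 held 1603 UMIs in the matrix-rich spots of Ehmt2+/+ section 1 and 107, 267 and 92 in the others.

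Spots with at least 100 but under 500 UMIs were outside the rule but carried its genes. In them the 5 genes stood at 613, 967, 2544 and 2180 CPM over 1520, 2737, 1350 and 2007 spots. In spots with at least 500 but under 1000 UMIs they stood at 1126, 685, 2180 and 1975 CPM, and in deeper spots at 404.3, 392, 1834 and 1808 CPM. No control section without the signal was at hand.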

How the results depend on the processing

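Higher in all sections used were 98 genes, and 49 with at least 1000 UMIs per spot (15 of them among the 98), 169 and 44 with 100 and 400 spots per section (46 and 26), 36 with a score outside the enzymes (26), 29 with spots thinned to 500 UMIs (14), 91 with spots chosen on one part of the UMIs and measured on the other (19), 79 without lymphoid-rich spots (29), 33 in UMIs outside the enzymes (33), 943 and 1029 on slides 1 and 2 alone, and 184 to 467 leaving out a section. Lower were 0, but 2 in UMIs outside the enzymes, 19 and 13 on slides 1 and 2, and 0 to 2 leaving out a section. Fewer sections make the rule easier to meet. Lists of other cell types with a higher share numbered 10, and 5 without thinning. The genotype fit called 0 genes, but 117 with at least 1000 UMIs, 33 with 100 spots, 74 with a score outside the enzymes, 43 thinned, 77 with spots chosen on one part of the UMIs, 35 without lymphoid-rich spots, 67 with DESeq2, 135 without TMM, 35 without a filter, 18 without enzymes, 160 with the slide block, and 0 to 604 leaving out a section. The interaction called 0, but 4 with at least 1000 UMIs, 7 with 400 spots, 124 without TMM, all lower, 18 without enzymes, and 0 to 1547 leaving out a section. The cause of these moves was not tested. In both fits, leaving out a section leaves 1 section in a genotype, so the other genotype alone gives the spread there. The lymphoid list alone turned its direction, to -0.053 without lymphoid-rich spots. For the 31 genes with a genotype value, 0 of 541 alternative values reversed. These genes were picked by a small p in the same 4 sections, so their direction was close to fixed in advance. Depth limits most in Ehmt2+/+ section 2, where 75.5% of the matrix-rich spots rested on at most 3 UMIs.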

Other observations

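Genes of injury and early response, a list with Reg3a, Reg3b, Clu, Nupr1 and Jun, summed to 0.975, 0.816, 0.723 and 0.483 times the level of the other spots. The median log2 ratio of its genes was 0.35, 0.08, -0.10 and -0.43, so sum and median differed in sign in both Ehmt2+/+ sections. Clu, the gene of clusterin, gave the most UMIs of the list, and Jun, a transcription factor of the AP-1 family, stood at 201, 291, 641 and 491 CPM against 106, 177, 532 and 462 CPM. Mesothelial markers, which line the surface of the organ, were 3.53, 2.98, 1.93 and 1.44 times as high, and lymphatic markers 4.19, 2.81, 1.56 and 1.34 times. Nerve and Schwann cell markers stood at 2.05, 2.03, 1.08 and 1.26 times and mast cell and eosinophil markers at 0.827, 1.42, 1.30 and 1.42 times, so the latter had no common direction. Neutrophil markers stood at 2.003, 2.10, 1.13 and 1.16 times and pericyte and stellate markers at 4.42, 2.04, 1.67 and 1.40 times. Over the excess of the olfactory receptor genes, neutrophil markers were at 0.782, 0.951, 0.993 and 0.904 times and nerve markers at 0.80, 0.917, 0.943 and 0.981 times, so neither exceeded this background in any section, and pericyte and stellate markers were at 0.922 times in Ehmt2+/+ section 2. Myofibroblast genes stood at 14.3, 3.05, 2.26 and 1.44 times, with Tagln and Myl9, which smooth muscle shares, as the 2 of 16 that were 2-fold higher in all 4 sections. These lists describe spots chosen in this contrast and carry no test.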
